A study of Mus musculus with 12 samples.

Results

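Cyclic nucleotide phosphodiesterases are the enzymes that break down the second messengers cAMP and cGMP. Genes for these enzymes, 10 of the 22630 genes in the expression files, were followed across 12 subcutaneous pancreatic tumors: Pde1a, Pde1b and Pde1c of the calcium- and calmodulin-stimulated PDE1 subfamily, Pde3a and Pde3b of the cGMP-inhibited PDE3 subfamily, Pde4a, Pde4b, Pde4c and Pde4d of the cAMP-specific PDE4 subfamily, and Pde7a of the cAMP-specific PDE7 subfamily. The genes were taken by their symbols. They were selected on measured values of these same tumors, because Pde4a and Pde1b had stood out in the comparison of plus-dox with no-dox tumors, so that comparison is described here without a test.

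cAMP is made by adenylyl cyclases when a receptor coupled to a stimulatory G protein is occupied, and it acts through protein kinase A, the EPAC exchange factors and cyclic nucleotide-gated channels. Phosphodiesterases end the signal, and each is held near its own pool of cAMP by anchoring proteins. In leukocytes the PDE4 enzymes, mainly PDE4B and PDE4D, restrain the anti-inflammatory action of cAMP, and in fat cells PDE3B mediates the block that insulin puts on lipolysis.

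The tumors were grown from KCip53-1, a mouse pancreatic cancer line that was derived from a primary tumor of a mouse whose alleles every group of tumors therefore carried, among them Ptf1a-Cre, R26 rtTa/rtTa and the TREp53 R270H transgene. Ptf1a-Cre acts in the pancreatic epithelium, where it turns on the reverse tetracycline transactivator, and doxycycline (dox) then induces mutant p53R270H together with the reporter dsRed. The line is a single one, and the wild-type p53 sequence could not be amplified from it, per the study's text. A total of 500000 cells were injected into immunocompromised NSG mice aged 8 to 10 weeks, hosts that lack mature T, B and NK cells but keep their neutrophils, macrophages, fibroblasts and vessels. Tumors were implanted 2 to a mouse, and the labels do not say which ones shared a host, so p-values over tumors may be too small.

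No-dox tumors (n = 4) never received dox. Plus-dox tumors (n = 4) had dox in the drinking water for 36 days at 0.2 g/l in 5% sucrose. Off-dox tumors (n = 4) had the same dox for 33 days followed by 3 days without it. Whole tumors were lysed without sorting, so fewer cells of a type and less RNA per cell cannot be told apart in any value below.

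The counted reads per tumor ranged from 19845923 to 33137609, and 81.1% to 89.4% of mapped reads fell on genes. That share was 88.4% to 89.4% in the no-dox tumors and lower in all plus-dox (82.2% to 87.1%) and off-dox tumors (81.1% to 85.8%), so it separates the no-dox group from the others and no comparison within a level of it was possible. Its part in the results was not tested. The Trp53 row, which does not tell the transgene from the p53 of the host or the line, was at 40.1 to 57.4 RPKM (reads scaled to exon length and to mapped reads) in tumors without dox, at 40.4 to 56.0 with dox and at 41.6 to 45.4 off dox, and dsRed was not analysed here, so the files give no check of the induction. The epithelial markers Krt8, Krt18, Krt19, Epcam and 4 others summed to 1068 to 3126 RPKM over the tumors, with none of the 8 at 0. Single markers differed in spread, from 318 to 973 RPKM for Krt8, 7.76 to 388 for Epcam and 1.45 to 138 for Muc1. The lowest Epcam and Muc1 values were in plus-dox tumors, so the sum does not show that all tumors were alike in epithelium. Plus-dox tumor 2 and off-dox tumor 4 stood apart, the first with the highest Pde1a and Pde4b and the second with the highest Pde4a, and the fold changes and correlations that moved most when they were left out are given with and without them.

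The genes lie apart from one another in the genome. In build mm9, which the files use, Pde1b lies on the plus strand at chr15:103333729-103360483 and Pde4a on the plus strand at chr9:20970158-21017692. No other gene of the files overlaps the span of either. Pde3a (chr6:141197790-141447872) overlaps Gm10400, and Pde4d (chr13:109444371-110746177) contains the microRNA genes Mir582 and Mir1904, each on the same strand as its host. Only exon stretches that belong to 1 gene were counted.

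RefSeq promoter windows of build GRCm38.p6 were found for 7 of the 10 genes, 19 windows in all, since most of these genes have several start sites. Pde3a, Pde3b and Pde7a had no entry. The 250 bases before each start were searched on both strands for the full cAMP response element TGACGTCA, the sequence that CREB-family factors bind, and for its half-site TGACG, which the full element also holds. The full element was in 0 of the 19 windows and in 1.55% of the 32851 windows of all genes. The half-site was in 3 of the 19, at 1 start each of Pde1a, Pde4a and Pde4b, and in 17.8% of all windows. A match is a description of the letters and not of binding. The window at the first start of Pde1b (chr15:103502784-103503033, plus strand) and the Pde4a window with the half-site (chr9:21183851-21184100, plus strand) are shown because these 2 genes carry the differences between groups described below. In lower case, 5′ to 3′, with the half-site in capitals on whichever strand it reads:
Pde1b: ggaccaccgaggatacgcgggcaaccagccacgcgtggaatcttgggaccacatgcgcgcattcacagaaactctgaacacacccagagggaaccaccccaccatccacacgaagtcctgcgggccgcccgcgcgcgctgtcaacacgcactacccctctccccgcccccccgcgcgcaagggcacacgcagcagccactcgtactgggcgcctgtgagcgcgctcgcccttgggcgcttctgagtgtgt
Pde4a: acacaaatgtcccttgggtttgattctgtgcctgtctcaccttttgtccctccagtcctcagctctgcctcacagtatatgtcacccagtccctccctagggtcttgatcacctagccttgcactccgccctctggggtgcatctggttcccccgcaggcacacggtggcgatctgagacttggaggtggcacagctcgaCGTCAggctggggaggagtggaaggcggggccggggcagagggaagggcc
The capitals begin 50 bases before the Pde4a start and read as the half-site on the minus strand. Both windows matched the mm9 genome exactly at 1 place, at chr15:103333215-103333464 and chr9:20988295-20988544, and neither overlapped an exon of the GENCODE vM1 annotation. The first window lies before the Pde1b gene as the files span it, and the second lies 18387 bases inside the Pde4a span, before an internal start site. The Pde1b window was 67.2% and the Pde4a window 61.2% G and C. The files give 1 value per gene, so the start sites in use in these tumors cannot be told from them.

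The levels of the 10 genes spanned a wide range. Since RPKM is per exon length, the levels may be compared between genes. In no-dox tumors Pde3b was the most abundant at 9.18 ± 0.70 RPKM (mean ± SD, n = 4), followed by Pde7a at 7.93 ± 0.31, Pde4d at 4.68 ± 0.62 and Pde4b at 2.09 ± 0.39. Down to this place in the order, and for Pde4b over Pde1b, the lowest no-dox tumor for one gene was above the highest for the next. Below it, Pde1b at 1.16 ± 0.36, Pde4a at 1.01 ± 0.13, Pde3a at 0.79 ± 0.20, Pde1a at 0.38 ± 0.21 and Pde4c at 0.34 ± 0.14 each overlapped their neighbour in this run of 5 genes. Pde4c lay above Pde1c without overlap. Pde1c, at 0.02 ± 0.01 RPKM, rested on 3 to 16 counts per tumor in all 12 tumors, and its differences are not interpretable at this depth.

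The order at the top was less sharp in the other groups. In plus-dox tumors Pde3b (8.63 ± 0.87 RPKM) and Pde7a (8.29 ± 1.46) overlapped, and in off-dox tumors Pde7a (10.5 ± 4.0) had the higher mean but overlapped Pde3b (9.60 ± 0.62). Pde4a stood above Pde3a in every plus-dox and off-dox tumor, with no overlap, while the no-dox tumors of the 2 genes overlapped. Of the summed RPKM of the 21 catalytic phosphodiesterase genes in the files, which came to 39.2 ± 1.3, 47.1 ± 4.3 and 48.9 ± 5.5 for no-dox, plus-dox and off-dox, Pde3b made up 23.5% ± 2.1, 18.5% ± 3.3 and 19.8% ± 2.6. The PDE1 subfamily made up 3.98% ± 1.12, 5.79% ± 1.15 and 5.86% ± 0.54, and the PDE4 subfamily 18.6% to 22.3%, 18.3% to 24.2% and 16.5% to 22.7% in the same order.

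The spread between tumors of a group also differed between the genes. Among the 9 genes averaging more than 0.25 RPKM, which leaves out Pde1c, the mean coefficient of variation within groups was lowest for Pde3b at 8.0% and highest for Pde1a at 51.7%, beside a median of 16.7% over all genes averaging more than 0.25 RPKM. It was 19.7% for Pde4a, 19.8% for Pde7a, 21.3% for Pde4d, 23.3% for Pde1b, 24.9% for Pde3a, 25.2% for Pde4b and 33.1% for Pde4c, each above that median.

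**Figure D1:**
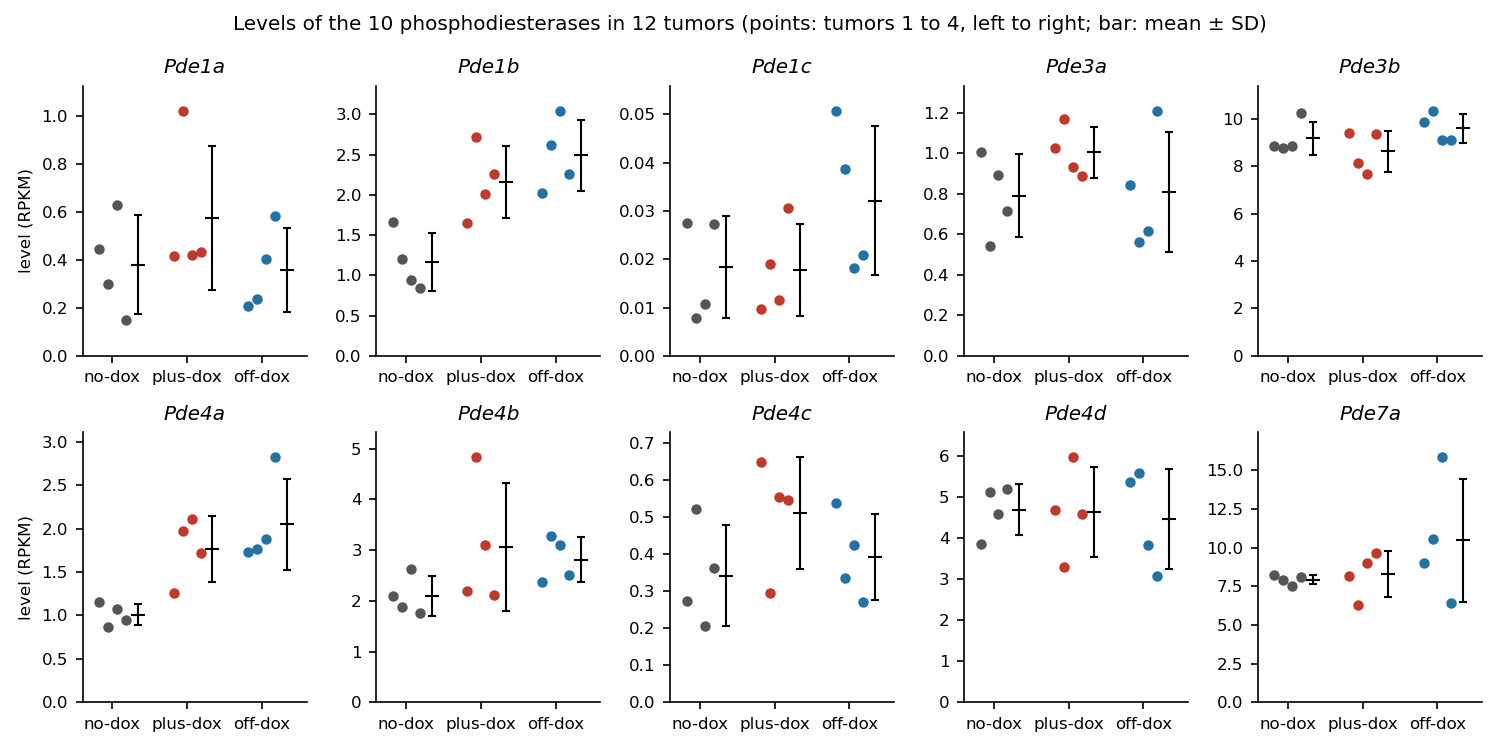
Level of each of the 10 genes in RPKM (vertical axis, starting at 0 and scaled per gene) by group, with 4 tumors in each. Points are tumors and the bar beside them is the mean ± SD. All 4 off-dox tumors lie above all 4 no-dox tumors for Pde1b and Pde4a, and the groups overlap for the other 8 genes in that comparison.

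Pde1b encodes a calcium- and calmodulin-dependent enzyme that hydrolyses cAMP and cGMP. It was at 1.66, 1.20, 0.947 and 0.849 RPKM in the no-dox tumors, numbered 1 to 4. With dox it was at 1.65, 2.72, 2.01 and 2.25, and in off-dox tumors at 2.03, 2.62, 3.05 and 2.26. The 4 off-dox tumors were all above the 4 no-dox tumors, while plus-dox tumor 1 lay at the level of the highest no-dox tumor. These values rest on 81 to 263 counts per tumor.

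Pde4a encodes a long-studied cAMP-specific enzyme, one of the targets of the inhibitor rolipram. It was at 1.15, 0.868, 1.07 and 0.950 RPKM in the no-dox tumors, numbered 1 to 4. With dox it was at 1.26, 1.98, 2.11 and 1.72, and in off-dox tumors at 1.73, 1.76, 1.88 and 2.82. Neither plus-dox nor off-dox tumors overlapped the no-dox tumors, and plus-dox tumor 1 and off-dox tumor 4 set the lower and upper end of the exposed tumors. The counts per tumor were 134 to 434.

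Pde4b, the PDE4 enzyme most tied to inflammatory signaling in leukocytes, was at 2.10, 1.87, 2.64 and 1.76 RPKM in the no-dox tumors. It was at 2.19, 4.84, 3.10 and 2.11 in plus-dox and at 2.37, 3.28, 3.09 and 2.52 in off-dox tumors. The groups overlapped, and plus-dox tumor 2 was the highest of all 12. Pde4d, a widely expressed cAMP-specific enzyme, was at 3.86 to 5.19 RPKM (no-dox), 3.29 to 5.96 (plus-dox) and 3.08 to 5.58 (off-dox), with full overlap. Pde4c, the least abundant PDE4 gene, was at 0.207 to 0.523, 0.295 to 0.650 and 0.272 to 0.540 RPKM in the same groups, on 19 to 65 counts.

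Pde7a encodes a cAMP-specific enzyme that rolipram does not inhibit and that is known from T cells. It was within 7.52 to 8.22 RPKM in the no-dox tumors, at 8.18, 6.28, 9.03 and 9.65 in plus-dox tumors and at 8.99, 10.5, 15.8 and 6.45 in off-dox tumors. Off-dox tumor 3 was the highest and plus-dox tumor 2 the lowest of the 12, so the groups exposed to dox were more spread (SD 1.46 and 3.97) than the no-dox group (SD 0.31). Pde3b was the steadiest member, at 8.78 to 10.2 RPKM (no-dox), 7.67 to 9.38 (plus-dox) and 9.09 to 10.3 (off-dox). Its relative Pde3a, an enzyme of heart, platelets and vascular smooth muscle, was lower at 0.543 to 1.01, 0.891 to 1.17 and 0.562 to 1.21 RPKM. Pde1a, which is found in vascular smooth muscle and brain, was at 0.148 to 0.630, 0.418 to 1.02 and 0.207 to 0.584 RPKM in the same groups, and plus-dox tumor 2 held its highest value.

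Tumors 3 days off dox were compared with tumors never on dox. Pde1b and Pde4a rose: Pde1b was 2.19-fold higher (log2 fold change 1.13, SE 0.23, edgeR quasi-likelihood adjusted p = 0.0819) and Pde4a 2.08-fold higher (1.06, SE 0.22, edgeR adjusted p = 0.0832). The limits of the call, taken from the study, were a difference above 1.5-fold, adjusted p below 0.1, exon length above 250 bp and RPKM averaging more than 0.25 in the tumors compared. So 2 of the 10 genes were called, both higher, beside 235 of 17561 genes tested (1.34%). The no-dox tumors used here also entered the comparison from which the genes were chosen, so the 2 calls are not independent of that choice. Among the 9 genes above the RPKM limit, these 2 had no overlap between the groups with off-dox higher, beside 5.16% of all such genes, and none of the 9 was lower without overlap.

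The other 8 genes did not pass the test between off-dox and no-dox tumors. Pde4b had a log2 fold change of 0.45 (SE 0.26, edgeR adjusted p = 0.342) and Pde7a 0.42 (SE 0.22, edgeR adjusted p = 0.293). Pde4c was at 0.23 (SE 0.34), Pde3b at 0.09 (SE 0.09), Pde3a at 0.07 (SE 0.28), Pde1a at −0.04 (SE 0.49) and Pde4d at −0.05 (SE 0.22). Pde1c, on 3 to 16 counts, was at 0.79 (SE 0.53). Without plus-dox tumor 2 and off-dox tumor 4, Pde1a was at −0.41 (SE 0.44), Pde3a at −0.22 (SE 0.25), Pde4c at 0.36 (SE 0.32) and Pde4d at 0.08 (SE 0.18). For Pde3b the SE was small enough to resolve changes well under the 1.5-fold limit, whereas for Pde1a it was not. The median over the 10 genes was 0.32, beside 0.01 over all genes tested. Over the 9 genes above the RPKM limit, which leaves out Pde1c, it was 0.23, beside −0.018 over all such genes.

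The 2 calls sat close to the limit. They were lost, at unchanged direction, when any 1 of the no-dox tumors was left out (edgeR adjusted p 0.13 to 0.18), when off-dox tumor 2, 3 or 4 was (0.11 to 0.22) and when plus-dox tumor 3 or 4 was (0.11 to 0.13). They were also lost when only the 8 tumors compared entered the fit (0.14 for both). Over the 12 fits that left out 1 tumor the log2 fold change stayed between 1.02 and 1.33 for Pde1b and between 0.84 and 1.14 for Pde4a. Without plus-dox tumor 2 and off-dox tumor 4 together, both stayed called (Pde1b 1.16, edgeR adjusted p = 0.071, and Pde4a 0.84, edgeR adjusted p = 0.072), and Pde7a was called as well at 0.59 (edgeR adjusted p = 0.087). That fit leaves out the lowest off-dox tumor for Pde7a (tumor 4, 6.45 RPKM) and keeps the highest (tumor 3, 15.8 RPKM).

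Withdrawal of dox for 3 days was compared with continued dox. By edgeR, 0 of the 10 genes and 0 of the 17561 genes tested (0.0%) were called in off-dox against plus-dox tumors. Pde1b differed by 0.22 (SE 0.23) and Pde4a by 0.23 (SE 0.22) on the log2 scale, both with off-dox the higher mean and an edgeR adjusted p of 1.0. Each difference was about 1 SE from 0, so the values do not show that the levels were alike. Pde7a (0.35, SE 0.22), Pde3b (0.18, SE 0.09), Pde1a (−0.65, SE 0.49), Pde4c (−0.37, SE 0.34), Pde3a (−0.28, SE 0.28), Pde4b (−0.11, SE 0.26), Pde4d (−0.05, SE 0.22) and Pde1c (0.88, SE 0.54) had the same adjusted p. At an unadjusted p under 0.05 the count of members was 0 of 10, beside 1.25% of all genes higher and 1.81% lower. DESeq2 called 4 of all genes with moderated and 6 without moderated fold changes and limma-voom 0, and neither tool called any of the 10. Without plus-dox tumor 2 and off-dox tumor 4, Pde1b differed by 0.39 (SE 0.26), Pde4a by 0.08 (SE 0.21), Pde3a by −0.48 (SE 0.27) and Pde4b by 0.24 (SE 0.22), each at an edgeR adjusted p of 1.0. All 9 genes above the RPKM limit overlapped between these groups, while 1.46% of such genes did not.

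The plus-dox tumors against the no-dox tumors are given as a description, since this comparison brought the genes up. Pde1b was 1.88-fold higher (log2 fold change 0.91, SE 0.23) and Pde4a 1.77-fold higher (0.82, SE 0.22). Pde1a (0.61, SE 0.49), Pde4c (0.59, SE 0.34), Pde4b (0.57, SE 0.26) and Pde3a (0.35, SE 0.28) had higher means in plus-dox tumors, and Pde7a (0.07, SE 0.22), Pde4d (0.00, SE 0.22) and Pde3b (−0.08, SE 0.09) lay within 1 SE of 0, as did Pde1c on its few counts (−0.09, SE 0.55). Without plus-dox tumor 2 and off-dox tumor 4, Pde1a was at 0.16 (SE 0.42), Pde4b at 0.25 (SE 0.21), Pde4c at 0.78 (SE 0.32), Pde3a at 0.26 (SE 0.25), Pde7a at 0.18 (SE 0.17) and Pde4d at 0.13 (SE 0.18), while Pde1b was at 0.77 (SE 0.24) and Pde4a at 0.76 (SE 0.20). So the higher plus-dox means of Pde1a and Pde4b rested largely on plus-dox tumor 2, without which alone they were at 0.17 and 0.26. Over all genes tested, edgeR called 0 of 17561 (0.0%) in this comparison, with 8.0% higher and 5.67% lower at an unadjusted p under 0.05. DESeq2 called 90 genes with moderated and 128 without moderated fold changes, and limma-voom 112. Among the 9 genes above the RPKM limit, Pde4a alone had no overlap with plus-dox higher, beside 4.4% of all such genes.

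**Figure D2:**
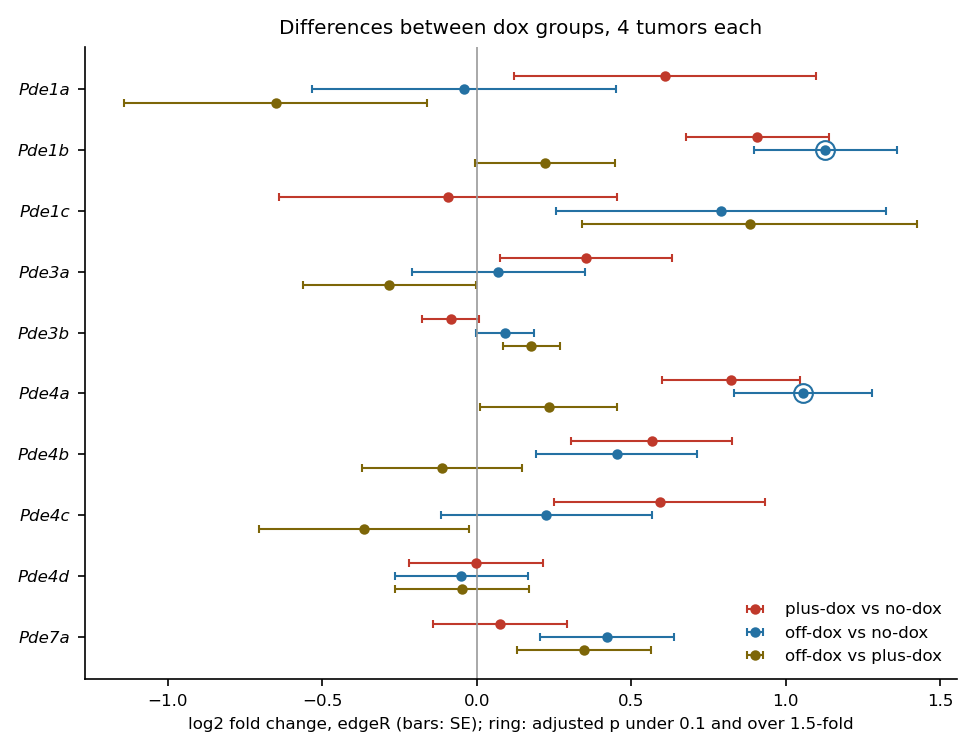
Log2 fold change (horizontal axis) of each of the 10 genes in 3 comparisons of 4 tumors against 4, from the edgeR fit, with bars of 1 SE. Rings mark the 2 calls, Pde1b at 1.13 and Pde4a at 1.06 in off-dox against no-dox tumors, and the plus-dox against no-dox values are a description since they chose the genes.

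Pde1b and Pde4a varied together over the 12 tumors. Their Pearson r of log2 levels was 0.82 (Spearman rho 0.83), and 0.86 without plus-dox tumor 2 and off-dox tumor 4. Pde4b was at 0.66 with Pde1b and 0.65 with Pde4a, and at 0.63 and 0.77 without those tumors. These are descriptions over 12 tumors that share the group differences. Pde1a was at 0.66 with Pde3a, −0.66 with Pde3b and −0.65 with Pde4d, and at 0.46, −0.70 and −0.40 without the 2 tumors. Pde7a was at 0.38 with Pde1b and 0.14 with Pde4a over 12 tumors, and at 0.77 and 0.68 without them.

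**Figure D3:**
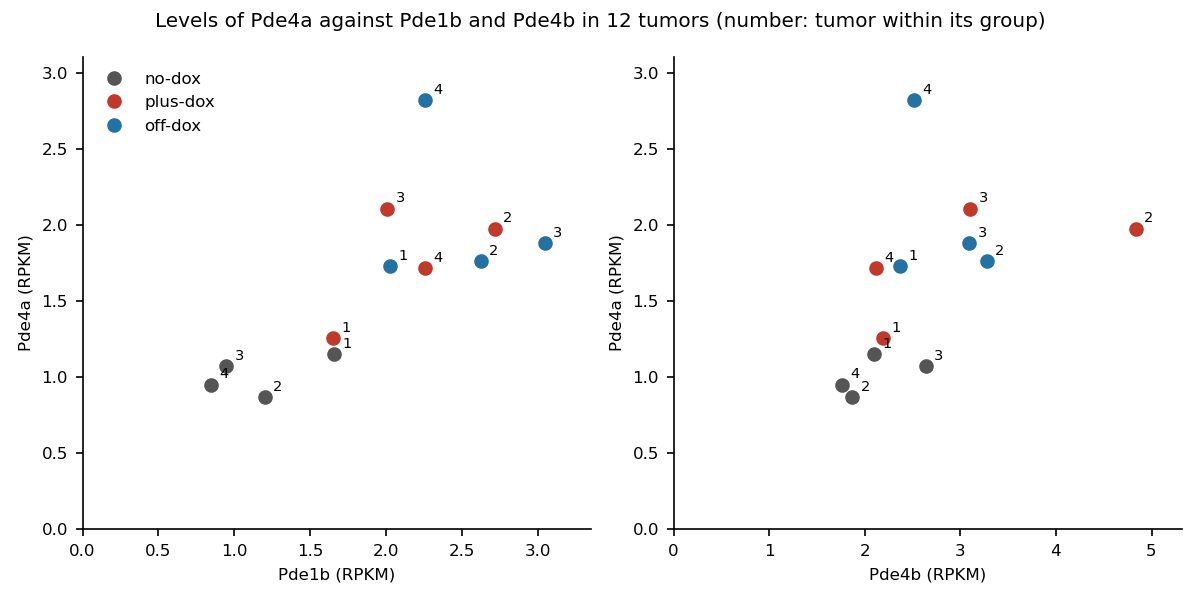
Level of Pde4a in RPKM (vertical axes) against that of Pde1b (left) and Pde4b (right) in the 12 tumors, with axes starting at 0 and each point numbered by its tumor. The no-dox tumors lie at the lower left of both panels, off-dox tumor 4 is the highest for Pde4a at 2.82, and plus-dox tumor 2 is the highest for Pde4b at 4.84.

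The genes most like each member were sought among 12694 genes with a mean RPKM over 1, by Pearson r of log2 levels over the 12 tumors. Pde1a was most like Fkbp7 (0.967), Cthrc1 (0.966), a secreted protein made with collagen, and the homeobox gene Prrx2 (0.955). Pde1b was most like BC005764 (0.95), Gpr162 (0.949) and Plcb2 (0.945), a phospholipase C of blood cells. Pde4a was most like Gm129 (0.967), Ankrd44 (0.948) and the ubiquitin ligase Cbl (0.945), and Pde4b most like Gimap4 (0.936), a GTPase of lymphocytes, Swap70 (0.922) and Atg9b (0.921).

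Among the rest, Pde4d was most like Slc25a24 (0.922), F2rl1 (0.917), a receptor that proteases activate, and Tgoln1 (0.896). Pde7a was most like the zinc finger gene Zfp788 (0.928), Mtcp1 (0.918) and Zfp160 (0.917), Pde4c most like the helicase Helq (0.912), Zc3h3 (0.909) and Tcof1 (0.884), and Pde3a most like Irx3 (0.896), Serp2 (0.864) and the protease gene Ctsk (0.856). Pde3b had the lowest best matches, Tlk1 (0.802), Gm13157 (0.780) and Tbc1d15 (0.773). Without plus-dox tumor 2 and off-dox tumor 4, the r with the closest gene moved by less than 0.1 for each of these 9 genes.

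Summed markers of other cell types also differed between the groups, in part with overlap. The T and NK cell list (Cd3e, Nkg7, Gzmb and 5 others) summed to 1.22 to 3.30 RPKM (no-dox), 3.39 to 10.3 (plus-dox) and 3.39 to 11.1 (off-dox), with Cd3e and Cd3g at 0 in at least 1 tumor. Gzmb alone was at 0.514 to 2.06, 1.27 to 7.64 and 1.75 to 8.84 RPKM in the same order. Since NSG hosts lack mature T and NK cells, this list is not read as a measure of such cells. The neutrophil list (S100a8, S100a9, Csf3r, Cxcr2, Mmp9 and others, 7 of 8 in the files) summed to 39.5 to 64.3, 58.0 to 240 and 57.6 to 139 RPKM, with Retnlg at 0 in at least 1 tumor. Mmp9 made up most of the highest sums, at 11.0 to 21.2, 18.2 to 173 and 9.77 to 111 RPKM. S100a9 was at 11.8 to 20.2, 16.9 to 31.2 and 10.5 to 24.7 RPKM in the same order. The list did not move as one: Il1r2 averaged 6.25, 7.04 and 5.06 RPKM, and Retnlg 0.30, 0.24 and 0.33. In each comparison with the no-dox tumors, 6 of the 7 neutrophil genes had a log2 fold change above 0. The skeletal muscle list (Acta1, Myh4, Ckm and 5 others) summed to 8.18 to 153, 120 to 387 and 8.95 to 1062, and the pancreatic tumor epithelium list to 2301 to 3126, 1363 to 2028 and 1068 to 2640 RPKM. In off-dox against no-dox tumors 1 of 8 T and NK cell genes (Nkg7), 2 of 7 neutrophil genes (Csf3r and Cxcr2) and 1 of 8 skeletal muscle genes (Actn3) were called, all higher, and 0 of 8 epithelial genes. Over all genes tested, 1.34% were called in this comparison.

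The members were correlated with a score per list, the mean of the standardized log2 levels of its tested genes, and not with the summed RPKM. All genes of a list weigh the same in its score, whatever their level. Each member had its own pattern against these scores. Pde1b was at r = 0.83 with the T and NK cell score, 0.71 with the neutrophil, 0.68 with the skeletal muscle and −0.70 with the epithelial score over 12 tumors. Without plus-dox tumor 2 and off-dox tumor 4 these were 0.83, 0.78, 0.88 and −0.67. Pde4a was at 0.79 with the T and NK cell score, 0.71 with smooth muscle and pericytes, 0.59 with neutrophils and −0.61 with epithelium. Without those 2 tumors these were 0.81, 0.78, 0.91 and −0.49. Pde4b was at 0.91 with the neutrophil score, the highest of all its pairs, and at 0.90 without those tumors. The part that cell composition had in the differences of Pde1b, Pde4a and Pde4b between groups was not tested.

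Pde1a was at 0.85 with the fibroblast score and 0.80 with the endothelial score, and at 0.81 and 0.61 without the 2 tumors. Pde4d alone was positive with the epithelial score beyond 0.5, at 0.78 and at 0.60 without them. Pde3a was at 0.69 with endothelium and 0.66 with smooth muscle and pericytes, and at 0.59 and 0.66 without them. Pde7a was at 0.66 with the nerve and Schwann cell score, 0.59 with the macrophage, 0.56 with the skeletal muscle and 0.00 with the epithelial score. Without the 2 tumors these were 0.44, 0.73, 0.74 and −0.75. The nerve and Schwann cell value of Pde7a was thus smaller without those tumors. Its macrophage, skeletal muscle and epithelial values were larger in size, epithelium most of all. Pde3b was at −0.67 with fibroblasts, and at −0.61 without the 2 tumors, and Pde4c had no r beyond 0.5 with any of the 11 lists either way. All are descriptions over tumors that share group, depth and composition.

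**Figure D4:**
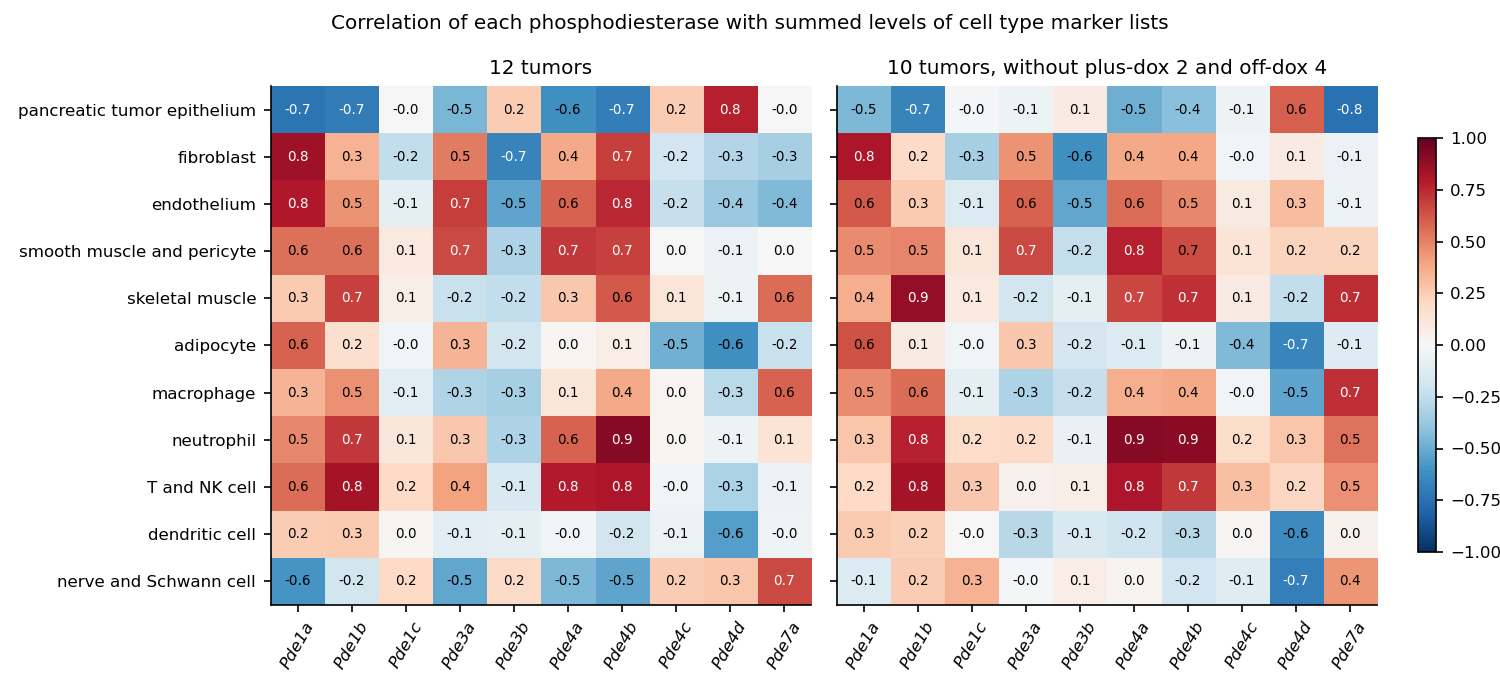
Pearson r between the log2 level of each of the 10 genes (columns) and the score of each of 11 cell type marker lists (rows). It is given over 12 tumors (left) and over 10 without plus-dox tumor 2 and off-dox tumor 4 (right), with the colour running from −1 to 1. A score is the mean standardized log2 level of the list's genes, which the heading of the figure calls summed levels. Pde4b with the neutrophil list (0.91 and 0.90) and Pde1b with the T and NK cell list (0.83 and 0.83) are among the strongest in both panels. Pde1c rests on very few counts.

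The remaining phosphodiesterase genes were set beside the 10. Of 14 in the files 13 were tested, and edgeR called 0 in any of the 3 comparisons, whereas DESeq2 without moderated fold changes called Pde8a and Pde10a, and limma-voom called Pde8a, in off-dox against no-dox tumors. At an unadjusted p under 0.05, 3 (Pde8a, Pde10a and Pde6h) were higher in off-dox than in no-dox tumors, beside 10.9% of all genes, and 0 were lower, beside 9.48%. Pde8a, a high-affinity cAMP enzyme, was at 2.31 ± 0.27 RPKM (no-dox), 3.71 ± 1.05 (plus-dox) and 3.47 ± 0.68 (off-dox), with a log2 fold change of 0.61 (SE 0.22, edgeR adjusted p = 0.164) for off-dox against no-dox. Pde10a, at 0.22 ± 0.02, 0.34 ± 0.09 and 0.34 ± 0.04 RPKM, had 0.65 (SE 0.24, edgeR adjusted p = 0.16), and Pde8b, at 0.30 ± 0.01, 0.46 ± 0.10 and 0.42 ± 0.10 RPKM, had 0.52 (SE 0.24, edgeR adjusted p = 0.249). For Pde8a, Pde10a and Pde8b the off-dox tumors lay above the no-dox tumors without overlap. These were 3 of the 9 genes of this list above the RPKM limit, beside 5.16% of all such genes. For Pde8b and Pde10a the plus-dox tumors also lay above the no-dox tumors without overlap, 2 of 8 such genes of the list, beside 4.4%.

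Pde2a, the cGMP-stimulated enzyme, was the most abundant catalytic gene outside the 10 at 5.48 ± 0.70, 6.97 ± 1.49 and 7.10 ± 1.17 RPKM, with 0.40 (SE 0.18, edgeR adjusted p = 0.246) for off-dox against no-dox. Pde6d, a prenyl-binding protein that is named as a subunit of the photoreceptor enzyme, was at 26.1 ± 2.8, 25.1 ± 1.9 and 23.5 ± 3.0 RPKM. Pde7b was at 1.67 ± 0.27, 1.97 ± 0.35 and 2.163 ± 0.46 RPKM, and Pde5a, the cGMP-specific target of sildenafil, at 0.75 ± 0.16, 1.24 ± 0.60 and 1.01 ± 0.35. The cGMP-specific Pde9a was at 0.52 ± 0.08, 1.41 ± 1.1 and 0.61 ± 0.22, its plus-dox mean being set by widely spread tumors. Pde6h was at 0 to 45 counts per tumor, and off-dox tumor 4 held the 45.

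The genes that make cAMP and cGMP, and those that carry the signal, were also set beside the family, with group means of RPKM in the order no-dox, plus-dox and off-dox. None of the genes in the 6 lists was called in any comparison by edgeR. DESeq2 called Adcy7 in off-dox against no-dox tumors, without moderated fold changes also Adrb3 and Pde4dip, and limma-voom called Pde4dip. The cyclases had a median log2 fold change of 0.31 over 17 tested in off-dox against no-dox tumors. At an unadjusted p under 0.05, 2 were higher, beside 10.9% of all genes, and 0 lower, beside 9.48%. Adcy7, the adenylyl cyclase of hematopoietic cells, was nearest to the limit at 9.99 RPKM without dox, 14.4 with dox and 16.0 off dox (log2 fold change off-dox against no-dox 0.72, SE 0.21, edgeR adjusted p = 0.114). Adcy6, the most abundant at 21.5, 21.7 and 22.3 RPKM, was at 0.08 (SE 0.16), and Adcy3, at 2.77, 4.24 and 3.34 RPKM, was at 0.31 (SE 0.29).

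The G proteins that raise or lower cAMP had a median of −0.05 over 7 tested. Gnas, the stimulatory subunit, was at 82.6, 92.2 and 78.2 RPKM, Gnai2 at 173, 179 and 168, and Gnai3 at 69.3, 59.9 and 61.0. Among receptors that raise cAMP (15 tested, median 0.18), 1 was lower at an unadjusted p under 0.05, beside 9.48% of all genes. The prostaglandin receptor Ptger4 was at 6.68, 6.37 and 6.16 RPKM, Pth1r at 2.81, 3.11 and 2.39 and Calcrl at 1.99, 2.99 and 2.36. Among the effectors (16 tested, median 0.17), 2 were higher at an unadjusted p under 0.05, beside 10.9% of all genes. The protein kinase A subunits Prkar1a (113, 102 and 96.8 RPKM) and Prkaca (24.7, 25.3 and 23.7) had log2 fold changes of −0.19 (SE 0.15) and −0.02 (SE 0.12) for off-dox against no-dox. The cGMP-dependent kinase Prkg2 (25.2, 30.8 and 38.4) had 0.65 (SE 0.67).

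The list of partners and anchors had a median of 0.17 in off-dox against no-dox tumors. At an unadjusted p under 0.05, 6 of its 19 genes were higher, beside 10.9% of all genes, and 1 lower, beside 9.48%. Among its most abundant genes were Gnb2l1, the scaffold RACK1 that binds PDE4D, at 1679, 1516 and 1518 RPKM, and the calmodulin gene Calm2 (429, 374 and 383), whose protein activates PDE1. Their log2 fold changes for off-dox against no-dox were −0.12 (SE 0.15) and −0.13 (SE 0.10). The CREB factors and cAMP-responsive genes had a median of 0.18 over 16 tested, with 3 higher and 1 lower at an unadjusted p under 0.05, beside the same shares of all genes. Fos, an immediate early target of CREB, was at 32.2, 21.99 and 19.6 RPKM (−0.71, SE 0.31, edgeR adjusted p = 0.227), Areg at 23.5, 31.7 and 48.0 RPKM (1.07, SE 0.84) and Atf1 at 21.7, 21.6 and 20.6 RPKM (−0.05, SE 0.09).

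**Figure D5:**
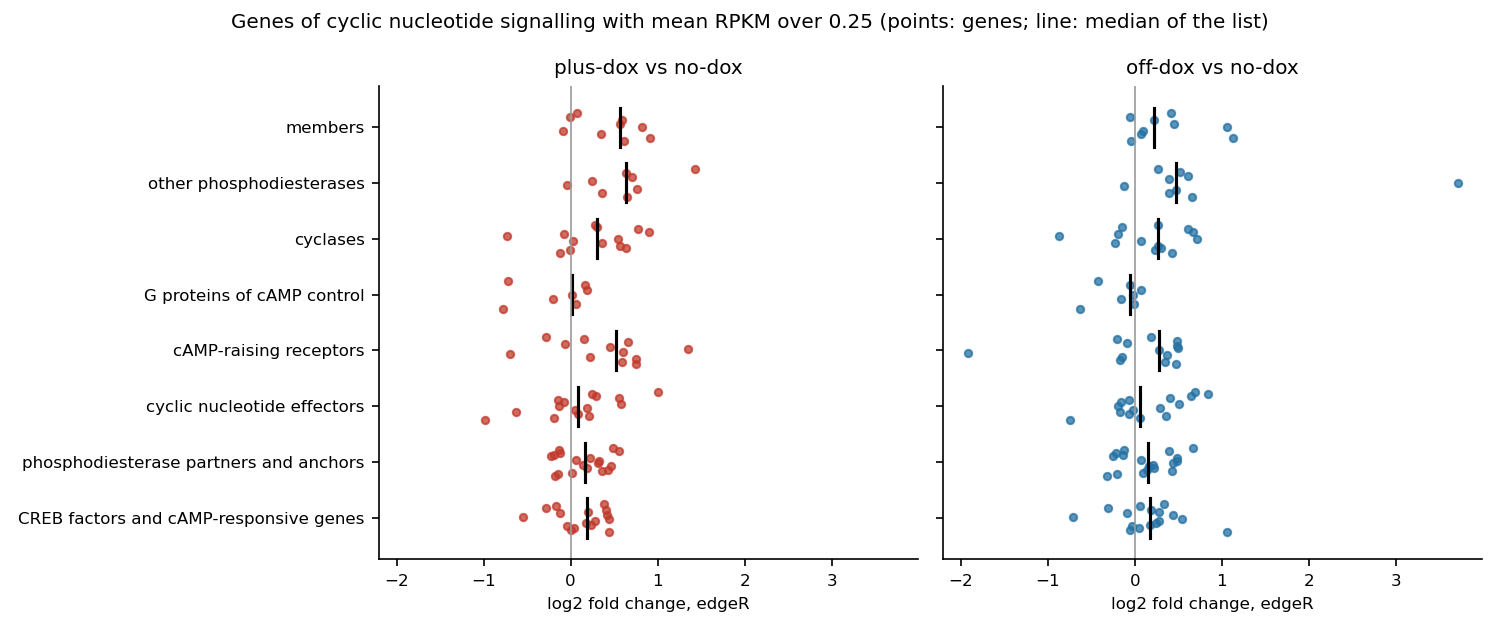
Log2 fold change (horizontal axes, the same scale in both panels) of genes averaging more than 0.25 RPKM in the 10-gene set (members) and 7 further lists of cyclic nucleotide signaling, for plus-dox (left) and off-dox (right) against no-dox tumors, with the list median as a black line. Pde1b (1.13) and Pde4a (1.06) were the 2 called genes, and the point farthest to the right is Pde6h, whose counts sit in 1 off-dox tumor.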

How the data were processed

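RNA from 12 whole tumors was sequenced by the submitters as poly(A), non-stranded, 50-bp single-end libraries. The authors aligned reads to mm9 with TopHat 1.4.1 over Bowtie 0.12.8 (CASAVA 1.8.2 and bedtools 2.16.2 are also in their processing notes) and deposited, per gene of a condensed RefSeq model, estimated counts from base-wise coverage of exon stretches that belong to 1 gene and RPKM values. Without strand, reads from an antisense partner cannot be told apart. Counts were rounded to whole numbers, and 17561 genes whose counts over the 12 tumors added up to 10 or more were fitted in edgeR 4.0.16 (R 4.3.3) with TMM scaling and the quasi-likelihood test, all 3 groups in 1 fit without a block, with Benjamini-Hochberg adjustment. The log2 levels used for correlations were edgeR log2 CPM with a prior count of 2. The fit was tested on simulated data for off-dox against no-dox, where it recovered 88.5% of 200 genes changed 4-fold (log2 of 2) among 17561, with 10.15% of calls false. On the same simulated data DESeq2 recovered 94.5% with moderated and 94% without moderated fold changes, with 21.9% and 23.27% of calls false. Limma-voom recovered 87.5%, with 10.71% false. The larger DESeq2 counts given here are to be read beside those false shares. The changed genes were drawn from those with higher counts, and calls there used the adjusted p alone. These rates therefore do not give the recovery of smaller differences, such as those of the 10 genes. DESeq2 1.42.0, limma 3.58.1, other filters and scalings, and leaving out tumors were tried.

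The 10 genes and all gene lists were chosen with earlier results of these data known. Named were all 10, the other phosphodiesterases with a mean RPKM over 0.25, in each further list the 3 genes with the highest mean RPKM and any called gene, and the 3 genes most like each of the 10 members with a mean RPKM over 0.25. The called marker genes, Mmp9, Il1r2 and Muc1 were named, and the values of Gzmb, S100a9, Retnlg, Krt8 and Epcam given, after their values were seen. Gene symbols came from the files. Items that this rule names but that are withheld are not reported here. Pairs of tumors within a group differed by 7.7 to 35.6 times the sampling noise of counts (median chi-square over genes), so no pair was 1 library deposited again. This does not show that tumors of 1 mouse are independent. The depth was 19845923 to 33137609 counted reads, which gives the rarest member, Pde1c, 3 to 16 counts. Promoter windows are RefSeq sequences of GRCm38.p6 and were placed in mm9 by exact match.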

Additional observations from a re-analysis of the deposited data

Results flagged for a closer look

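In 30 groups of 4 values (10 genes in 3 groups), the highest tumor was far from the others in 3, judged by its gap to the next tumor over the range of the group, against Dixon's 95% limit for 4 values. Chance alone flags about 1 in 20 groups. Pde1a was at 1.022 RPKM in plus-dox tumor 2, against 0.418 to 0.4327 in the other plus-dox tumors. Pde3b was at 10.2342 RPKM in no-dox tumor 4, against 8.7818 to 8.861 in the others. Pde4a was at 2.8228 RPKM in off-dox tumor 4, against 1.7284 to 1.8793 in the others.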

How the results depend on the processing

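For off-dox against no-dox, the called genes were 235 of all and 2 of the 10. All genes called were 396 with DESeq2 with moderated and 615 without moderated fold changes, 641 with limma-voom with tumor weights (added after seeing the data), 122 without a filter, 365 with at least 10 counts in every tumor, 471 without plus-dox tumor 2 and off-dox tumor 4, 3 with only the 8 tumors compared, and 0 at an adjusted p under 0.05. Pde1b and Pde4a were lost with only the 8 tumors (0 of 10, fewer samples) and at 0.05 (0). With a replicate block, 0 of all genes and 0 of the 10 were called. Nothing in the labels says that equal tumor numbers pair tumors. Deviations of tumors with equal numbers had a mean r of −0.088 over 12 pairs (−0.45 to 0.57), against 0.043 over 36 other pairs (−0.68 to 0.67). A tumor was closest to its own number in 3 of 24 comparisons with another group. These values spread too widely to exclude a pairing, and the host of each tumor is not known. With 1 tumor left out at a time, the count ranged from 0 to 789 of all genes (0 without no-dox 1, 2 or 4, off-dox 2, 3 or 4 or plus-dox 4, 1 without no-dox 3, 19 without plus-dox 3, and 789 without off-dox 1) and from 0 to 2 of the 10. For plus-dox against no-dox, where edgeR called 0, DESeq2 called 90 and 128 and limma-voom 112 genes, and edgeR 0 to 3 with 1 tumor left out. The counts of the 10 there (2, 2 and 1) follow from how the genes were chosen and test nothing. For off-dox against plus-dox, where edgeR called 0, DESeq2 called 4 and 6 genes.

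Signs near 0 turned in values that were not called. With off-dox against no-dox, Pde3a was −0.18 with limma-voom and −0.22 without the 2 tumors, Pde4d 0.11 and 0.08. With off-dox against plus-dox, Pde4b was 0.25 and 0.24. With 1 tumor left out, off-dox against no-dox ranged from −0.41 to 0.34 for Pde1a, from −0.22 to 0.21 for Pde3a and from −0.18 to 0.08 for Pde4d, and off-dox against plus-dox from −0.27 to 0.20 for Pde4b and from −0.18 to 0.13 for Pde4d. The cause of these changes was not tested. Leaving out a tumor moved none of the 120 shares of the summed RPKM by more than its SD. A group mean cannot move further than the SD of the same tumors when a tumor is left out, whatever the values. That outcome was therefore fixed in advance, and how stable the shares are was not tested. Depth limits Pde1c most.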
